A study of Mus musculus with 12 samples.

Results

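Potassium channels are membrane proteins that let potassium ions leave or enter a cell, and they were read here through the mRNA of the genes whose symbol starts with Kcn. Of 94 such protein-coding genes, 34 were described, chosen by a mean of at least 0.5 CPM (read counts scaled to a common library total) in either group. Of these, 26 reached that level in both groups, 7 in the cold group alone and 1 in the ctrl group alone. The members were thus selected on the group means of the same libraries, so no test is given for the 8 genes that passed through a single group. The tissue was interscapular brown fat, the heat-producing depot between the shoulder blades, from 12 male wild type C57BL/6N mice aged 20 weeks, 6 called cold and 6 called ctrl.

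The cold animals were kept alone at 4 °C for 24 h, and the colony was kept at 22 to 24 °C. The protocol on cold housing appears with the ctrl animals too and was taken to concern the cold group. If ctrl animals were not kept alone, single housing and cold cannot be told apart. The design text counts 3 cold animals against 6 in the labels, and the RNA protocol speaks of eWAT although the tissue is given as brown fat. Groups and tissue were taken from the labels.

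The pore of a potassium channel is built from subunits of a few families. Voltage-gated subunits open when the membrane depolarises, inward rectifiers pass current best near or below the resting potential, calcium-activated subunits follow intracellular calcium, and 2-pore subunits carry the leak that sets the resting potential. Modifier and accessory subunits form no pore of their own and change the channels they join. Brown adipocytes are excitable by noradrenaline, which depolarises them and starts lipolysis and heat production, and the 2-pore channel encoded by Kcnk3 is known to dampen that response.

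Libraries held 15984872 to 31423954 estimated reads, so that 1 read stood for 0.0323 to 0.0653 CPM. All 10 brown adipocyte markers were read, with a summed level of 19954 to 28112 CPM in ctrl and 25645 to 34757 CPM in cold. Ctrl 2 stood apart with 55.2% of its deposited TPM (length-scaled transcript abundance) on transcripts of effective length under 50 nt, against 2.36% to 8.41% elsewhere. Cold 15 had the highest sum of 12 skeletal muscle markers, 5284 CPM, against 178 to 2556 CPM in the other cold animals and 119 to 1608 CPM in ctrl. Cold 4 and cold 7 scored 37.1 and 19.1 on the second principal component of log2 CPM, against -25.7 to 4.30 in the other cold animals. Ctrl animals scored -22.5 to 22.8 on it, with ctrl 6 above cold 7. The median log2 fold change of all genes was -0.01.

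In cold animals Kcnk3, Kcnj11 and Kcnn1 rose, to 1.61, 2.56 and 1.37 times their ctrl means, and Kcna6 fell to 0.562 of its ctrl mean. Kcnh6, almost unread in ctrl, was present in every cold animal. The remaining 20 of the 26 genes at 0.5 CPM in both groups did not pass the test. Of all 13876 genes tested, 31.6% passed (2246 higher, 16.2%, and 2134 lower, 15.4%), against 23.1% of the 26 potassium channel genes (4 higher and 2 lower). With library totals in place of TMM scaling the share of higher genes among all called was 67.3% in place of 51.3%. The median log2 fold change of the 26 was 0.12, with 14 positive and 12 negative. Tests are edgeR's quasi-likelihood test of cold against ctrl, two-sided, with Benjamini-Hochberg adjustment over all genes and a threshold of 0.05.

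**Figure D1:**
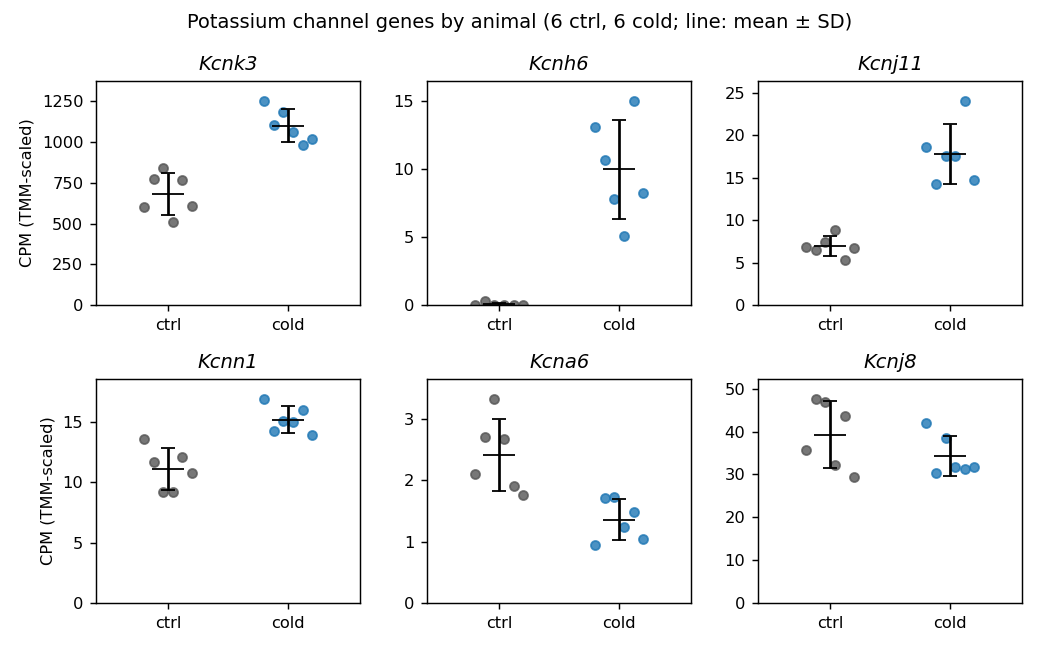
TMM-scaled CPM (vertical axes, each starting at 0) of 6 potassium channel genes in each of 6 ctrl and 6 cold animals, with mean and SD. Groups are apart for Kcnk3, Kcnh6, Kcnj11, Kcnn1 and Kcna6 and overlap for Kcnj8.

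Per length, Kcnk3 stood far above every other potassium channel gene. Its mean level over the 12 animals was 240 RPKM (CPM divided by annotated transcript length in kilobases), and levels further down included Kcnj8 at 15.5, Kcnn1 at 5.44, Kcnj11 at 4.28, Kcna5 at 3.46, Kcns3 at 2.71 and Kcnh6 at 1.52. The lowest of the 34 was Kcnh1 at 0.0803 RPKM. Kcnj8 was at 16.5 ± 3.34 RPKM in ctrl and 14.4 ± 2.14 in cold. In ctrl Kcna5 (3.30 ± 0.94), Kcns3 (2.55 ± 0.48) and Kcnj11 (2.33 ± 0.45) had ranges of mean and SD that overlapped, and in cold Kcnn1 (6.59 ± 0.91) and Kcnj11 (6.23 ± 1.21) differed by less than their SDs. Kcnk3 alone made up 73.1% ± 4.43 of the summed RPKM of all Kcn genes in ctrl and 82.0% ± 1.35 in cold (SD, n = 6 each). The other Kcn genes together summed to 66.1 ± 5.59 RPKM in ctrl and 64.5 ± 4.72 in cold, so that the sum apart from Kcnk3 differed by less than its spread between animals.

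**Figure D2:**
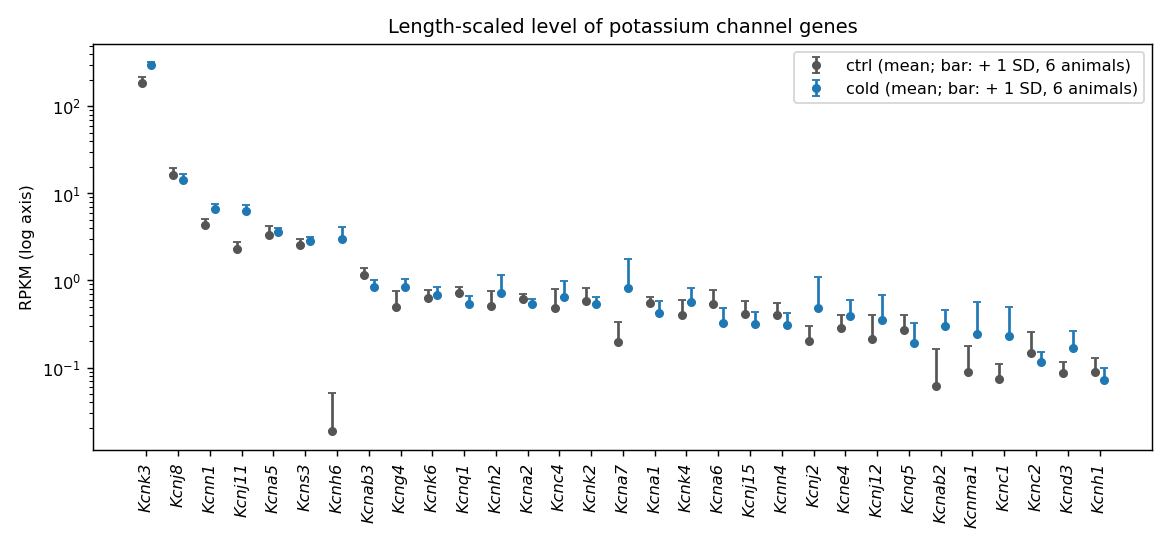
Mean RPKM on a log axis of 31 of the described genes in ctrl and cold, ordered by their mean over all animals; each bar reaches 1 SD above the mean of 6 animals. Kcnk3 is the highest in both groups and Kcnh6 has the widest gap between them.

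The summed RPKM was also split by family. The 2-pore genes held 73.9% ± 4.27 in ctrl and 82.6% ± 1.40 in cold. The voltage-gated pore-forming genes held 13.9% ± 3.72 and 7.47% ± 0.87, and the inward rectifiers 7.93% ± 0.56 and 6.11% ± 0.74. Calcium- or sodium-activated genes held 2.02% and 2.05%, modifiers 1.29% and 1.07%, and accessory subunits 0.944% and 0.699%. The summed level of the inward rectifiers was 19.8 ± 3.06 RPKM in ctrl and 22.0 ± 3.03 in cold, so that their lower share went with a total raised by Kcnk3 and not with a lower level. The voltage-gated pore-forming genes summed to 33.9 ± 5.52 and 26.8 ± 2.47 RPKM. These shares sum over genes that include those with the largest changes, and they are given without a test.

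Kcnk3 (chromosome 5, 30588170 to 30625271, GRCm38) encodes an acid-sensitive 2-pore leak channel. In ctrl it ranged from 508 to 838 CPM with a median of 686, and in cold from 980 to 1248 CPM with a median of 1081. Every cold animal was above every ctrl animal. The log2 fold change was 0.69 ± 0.12 (SE, adjusted p = 2.44e-04, edgeR), on means of 682 ± 128 and 1099 ± 102 CPM. In whole tissue, a change in the share of a cell type and a change in RNA per cell cannot be told apart, for this and every gene below. The sum of the 10 brown adipocyte markers overlapped between the groups, with 5 of the 10 higher and 1 lower. The coding transcript Kcnk3-201 held 99.6% of its reads. Kcnk3 shares 229 exon bases with Gm9899 on the opposite strand, which was at 77.9 and 92.5 CPM, and the sources used here do not state whether counting used strand.

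The other 2-pore genes were low, and none passed the test. Kcnk6, a weakly rectifying 2-pore subunit, had a log2 fold change of 0.11 ± 0.20, and the mechanically sensitive Kcnk2 and Kcnk4 had -0.08 ± 0.28 and 0.58 ± 0.29. Kcnk4 shares 587 exon bases with Catsperz on the same strand, and 81.1% of its reads were assigned to a transcript annotated as non-coding, so its level is uncertain. Kcnk4 passed without ctrl 2 and cold 15 (log2 fold change 0.84, adjusted p = 0.0462, edgeR). The other 10 of 14 2-pore genes were under 0.5 CPM in both groups.

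Among inward rectifiers the pore subunit of the ATP-sensitive channel rose. Kcnj11 (chromosome 7, 46093953 to 46100764) ranged from 5.33 to 8.84 CPM in ctrl, with a median of 6.78, and from 14.3 to 24.0 CPM in cold, with a median of 17.6. No cold animal was as low as a ctrl animal. Kcnj11 had the smallest p of the 26 genes, at a change of 1.36 ± 0.14 (log2, adjusted p = 1.89e-06, edgeR). Kcnj11 channels need a sulfonylurea receptor to reach the membrane, and Abcc8, the gene of one such receptor, lies next to Kcnj11 on chromosome 7 (46104523 to 46180033). Abcc8 went from 0.633 ± 0.23 to 2.15 ± 0.23 CPM (log2 fold change 1.73 ± 0.24, adjusted p = 4.07e-05, edgeR); it was singled out after its values were seen.

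Kcnj8, which encodes the other pore subunit of ATP-sensitive channels and is best known from vessels, did not pass the test. It ranged from 29.3 to 47.6 CPM in ctrl (median 39.8) and from 30.5 to 41.97 CPM in cold (median 31.7). The groups overlapped widely (-0.20 ± 0.13 on the log2 scale, adjusted p = 0.264, edgeR). Abcc9 encodes the other sulfonylurea receptor and, also chosen after its values were seen, had 56.8 ± 9.16 CPM in ctrl and 59.2 ± 12.4 in cold (0.06 ± 0.14 on the log2 scale, adjusted p = 0.805, edgeR). Of 10 smooth muscle and pericyte markers 1 was higher (Cnn1) and 2 were lower (Myh11, and Rgs5 at 297 and 191 CPM), with a sum of 704 to 800 CPM in ctrl and 595 to 843 CPM in cold; whether this played a part in Kcnj8 was not tested.

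Kcnj15, another inward rectifier, had a log2 fold change of -0.21 ± 0.33, and Kcnj2, a strong rectifier of muscle and heart, 1.26 ± 0.69 (adjusted p = 0.198, edgeR). Kcnj2 is described below with the skeletal muscle markers. The inward rectifiers described were 5 of 15.

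Kcnn1 (chromosome 8, 70842049 to 70863258) encodes a small-conductance calcium-activated channel. It ranged from 9.19 to 13.6 CPM in ctrl (median 11.2) and from 13.9 to 16.9 CPM in cold (median 15.1). The lowest cold animal lay just above the highest ctrl animal. On the log2 scale the change was 0.46 ± 0.10 (adjusted p = 2.91e-03, edgeR), and 0.76 when effective transcript lengths were taken as an offset. Its relative Kcnn4, the intermediate-conductance channel of blood and epithelial cells, was near the level threshold, with -0.28 ± 0.33.

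RefSeq lists 2 start sites for Kcnn1, and the promoter windows of both, 250 bases before to 50 after the start on GRCm38.p6, are shown because no read was assigned to a transcript of the outer start. The transcripts Kcnn1-206 and Kcnn1-208, which reach the outer start region in GENCODE M21, had 0 reads in all 12 libraries. Kcnn1-201 and Kcnn1-202, which begin at the inner start, together held 31.1% of the gene's reads, and Kcnn1-204 and Kcnn1-207, which begin a little downstream, 43.04% and 21.01%. Capitals mark TGACG or its reverse complement CGTCA, the core of the cAMP response element (CRE core).
Kcnn1 inner start, chr8:70856959-70857258, minus strand: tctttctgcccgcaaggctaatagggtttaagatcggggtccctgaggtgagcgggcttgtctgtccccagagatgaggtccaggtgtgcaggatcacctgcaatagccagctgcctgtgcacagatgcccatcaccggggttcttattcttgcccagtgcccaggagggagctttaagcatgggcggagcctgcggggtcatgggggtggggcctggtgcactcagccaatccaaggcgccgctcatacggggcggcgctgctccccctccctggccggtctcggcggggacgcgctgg
Kcnn1 outer start, chr8:70863209-70863508, minus strand: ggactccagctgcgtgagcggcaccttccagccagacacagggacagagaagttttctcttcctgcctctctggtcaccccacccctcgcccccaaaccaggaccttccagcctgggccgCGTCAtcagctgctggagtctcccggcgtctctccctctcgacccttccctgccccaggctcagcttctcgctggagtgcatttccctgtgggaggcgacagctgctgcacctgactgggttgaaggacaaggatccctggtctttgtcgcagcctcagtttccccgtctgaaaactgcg
The inner window holds no CRE core, and the outer window holds 1, beginning at position -130 from the start base.

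Kcnh6 (chromosome 11, 106008124 to 106034549) encodes a voltage-gated channel of the ether-a-go-go-related family. In ctrl it ranged from 0 to 0.283 CPM with a median of 0.0198, and in cold from 5.11 to 14.9 CPM with a median of 9.44. The 6 ctrl libraries held 9 reads in all, 7 of them in ctrl 5 and none in 3 of the animals, while the cold libraries held 99 to 404 reads each and 1330 in all. Cold 15 and cold 4 were the highest, cold 12 the lowest. Kcnh6 passed the level rule through cold alone, and its values are therefore a description. Its relative Kcnh2, the channel of cardiac repolarisation, was read in both groups, at medians of 1.59 and 2.01 CPM, with a log2 fold change of 0.40 ± 0.24 that did not pass.

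In cold, Kcnh6 reads fell on the coding transcript Kcnh6-201 and on Kcnh6-204, which is annotated as a target of nonsense-mediated decay. Kcnh6-204 made up 19.2% ± 5.62 of the gene's TPM (11.5% lowest, 20.9% median, 25.6% highest), from about 220 of the 1330 reads. The 2 remaining annotated transcripts had no reads. The promoter window of Kcnh6 is shown because of the gap between the groups, and that of Kcna6, described below, because that gene fell. Capitals again mark the CRE core.
Kcnh6, chr11:106007898-106008197, plus strand: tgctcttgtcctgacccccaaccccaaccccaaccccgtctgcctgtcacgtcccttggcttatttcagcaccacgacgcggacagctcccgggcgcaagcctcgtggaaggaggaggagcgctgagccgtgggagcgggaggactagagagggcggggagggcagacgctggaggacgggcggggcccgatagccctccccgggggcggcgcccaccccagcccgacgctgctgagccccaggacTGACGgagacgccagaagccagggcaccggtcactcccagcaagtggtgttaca
Kcna6, chr6:126740625-126740924, minus strand: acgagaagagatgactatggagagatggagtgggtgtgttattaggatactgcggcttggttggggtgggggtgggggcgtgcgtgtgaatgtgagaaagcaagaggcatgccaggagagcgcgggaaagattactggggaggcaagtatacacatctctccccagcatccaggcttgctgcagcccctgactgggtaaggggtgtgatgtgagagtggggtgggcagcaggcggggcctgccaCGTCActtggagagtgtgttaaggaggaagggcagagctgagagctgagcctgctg
In Kcnh6 the CRE core begins at position -4 and spans the start base, and in Kcna6, where it reads as CGTCA, at position -6.

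Promoter windows were present for 25 of the 34 genes, as 36 windows of 300 bases, and were searched on both strands for 6 motifs. The CRE core TGACG was in the windows of 8 of the 25 genes (22.2% of windows, against 20.8% of all 32851 windows in the table). The whole CRE TGACGTCA, which contains the CRE core, was in 0 of the 25 genes and 1.79% of all windows. The AP-1 motif TGANTCA was in 1 of the 36 windows, against 7.81% of all windows. The nuclear receptor motif AGGTCA was in 1 of the 36 (16.3% of all) and the E-box CACGTG in 3 of the 36 (7.15% of all). The GC box GGGCGG was in the windows of 15 of the 25 genes (44.4% of windows, against 35.7% of all). The share of windows with the CRE core was thus close to that of all windows.

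Among the voltage-gated pore-forming genes, 17 of 30 were described. Kcnc4, known for rapidly inactivating A-type currents, had a log2 fold change of 0.40 ± 0.45 and did not pass.

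The 2 modifier subunits described, which join voltage-gated channels and form no channel alone, did not pass the test. Kcns3 was at 6.66 ± 1.06 and 7.63 ± 0.71 CPM (0.20 ± 0.12, adjusted p = 0.233, edgeR), and Kcng4 at 1.87 ± 1.04 and 3.17 ± 0.82 CPM (0.77 ± 0.30, adjusted p = 0.0594). Kcng4 passed without ctrl 9 (1.07, adjusted p = 6.07e-03), with DESeq2 (0.77, adjusted p = 0.0354), with limma-voom (0.93, adjusted p = 0.0239) and with library totals (0.86, adjusted p = 0.0447). Its value was lower without cold 15, its highest animal (0.62, adjusted p = 0.142, edgeR), without ctrl 2 and cold 15 (0.58, adjusted p = 0.220) and with the muscle markers as a covariate (0.63, adjusted p = 0.115). Amigo1, which encodes an adhesion protein that joins voltage-gated channels, was at 19.6 ± 3.72 and 24.4 ± 3.06 CPM (0.31 ± 0.12, adjusted p = 0.0599, edgeR) and was singled out after its values were seen.

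Kcna6 (chromosome 6, 126708329 to 126740674) encodes a voltage-gated subunit of the shaker family. It ranged from 1.76 to 3.33 CPM in ctrl (median 2.39) and from 0.937 to 1.72 CPM in cold (median 1.36), and the lowest ctrl animal lay just above the highest cold animal. The log2 fold change was -0.84 ± 0.22 (adjusted p = 7.52e-03, edgeR), and it no longer passed with effective transcript lengths as an offset (-0.75, adjusted p = 0.138). Most of its reads, 75.8%, were assigned to Kcna6-201, annotated as a target of nonsense-mediated decay, and 8.11% to the coding transcript Kcna6-202. The gene shares 2355 exon bases with Gm26673 on the opposite strand, so that their reads can be told apart only if counting used strand.

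Other shaker-family genes did not pass. Kcna5, known from heart and smooth muscle, was at 9.44 ± 2.69 and 10.4 ± 1.15 CPM (0.13 ± 0.16 on the log2 scale, adjusted p = 0.587, edgeR). Kcna2 and Kcna1, known from axons, had -0.22 ± 0.13 and -0.38 ± 0.26. Neuronal markers were near the floor, with 9 of 10 under 1 CPM in every library and a sum of 4.53 to 7.76 CPM in ctrl and 4.54 to 7.63 CPM in cold. Of 10 Schwann cell markers 1 was higher, Pmp22.

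In the KCNQ subfamily, whose members carry slowly opening currents, Kcnq1 had -0.42 ± 0.21 and Kcnq5 -0.36 ± 0.39, and neither passed. Kcnd3, of the fast inactivating A-type channels, had 0.66 ± 0.36. The accessory subunits Kcnab3, a cytoplasmic beta subunit, and Kcne4, a single-pass regulator of voltage-gated channels, had -0.37 ± 0.17 and 0.44 ± 0.38. Kcnab3 passed without cold 16 (-0.48, adjusted p = 0.0454, edgeR). Over the 20 genes that did not pass, log2 fold changes lay between -0.42 and 1.26. Groups did not overlap in 5 of the 26 genes, with Kcnk3, Kcnj11, Kcnn1 and Kcna6 among them, against 16.3% of all genes tested.

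**Figure D3:**
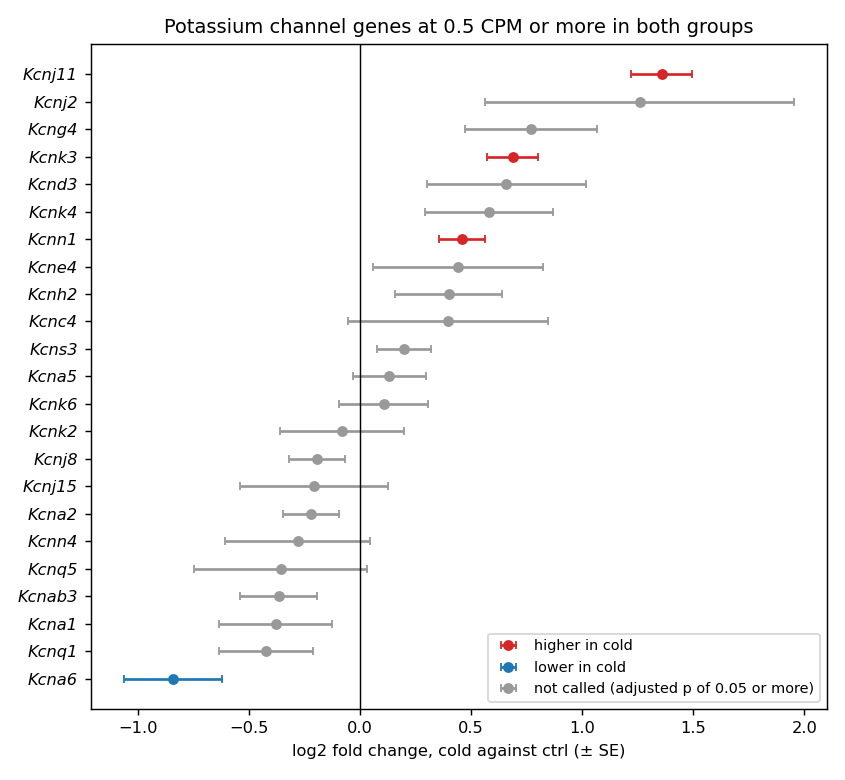
Log2 fold change of cold against ctrl with its SE (edgeR, 6 animals a group) for 23 of the potassium channel genes at 0.5 CPM or more in both groups; colours give the call. Kcnj11, Kcnk3 and Kcnn1 are called higher, Kcna6 lower, and Kcnj2 has a large value with a wide error.

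Some potassium channel genes were highest in cold 15, the library with the highest skeletal muscle marker sum. Kcnj11, Kcnh6, Kcng4, Kcnc4 and Kcnq5 were among them, so this trait is not particular to the genes given next. In cold 15 Kcnj2 stood at 9.22 CPM, Kcna7 at 5.51, Kcnc1 at 5.29, Kcnma1 at 5.25 and Kcnj12 at 2.27. Kcna7 and Kcnc1 encode voltage-gated subunits, Kcnma1 the large-conductance calcium-activated channel and Kcnj12 a strong inward rectifier. In the other cold animals their highest values were 2.80, 2.91, 2.37, 1.29 and 0.754 CPM, in cold 11 in each case, and cold 11 had the second highest muscle marker sum. The highest ctrl values were 1.81, 0.955, 0.607, 0.588 and 1.21 CPM.

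Without cold 15 the cold means were 1.30 CPM for Kcnj2, 1.07 for Kcna7, 0.984 for Kcnc1, 0.599 for Kcnma1 and 0.518 for Kcnj12, and all 34 genes still met the level rule. The log2 fold change of Kcnj2 went from 1.26 to 0.23 without cold 15 (adjusted p = 0.746, edgeR) and to 0.21 with the muscle markers as a covariate (adjusted p = 0.756). None of the 12 muscle markers was called in either direction. Beyond these values, the part of muscle RNA in the cold means of Kcna7, Kcnc1, Kcnma1 and Kcnj12 was not tested.

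**Figure D4:**
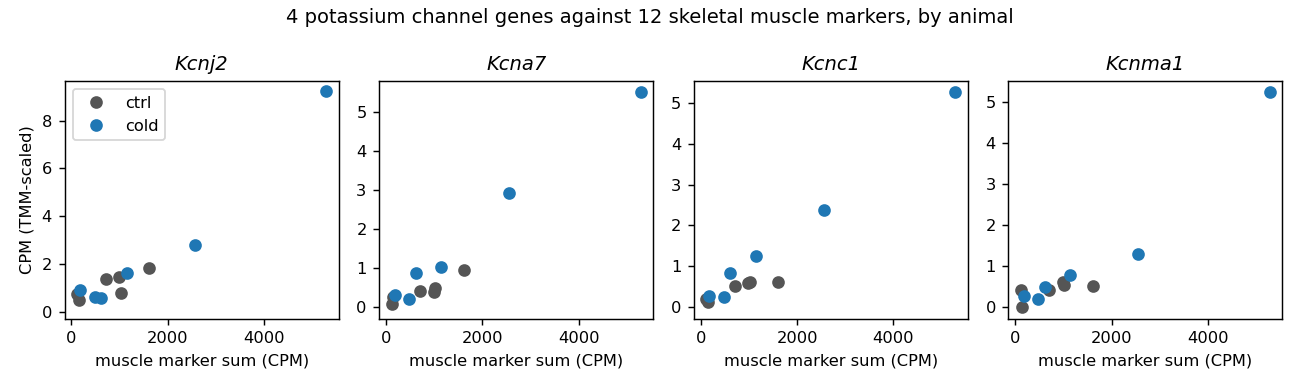
TMM-scaled CPM of Kcnj2, Kcna7, Kcnc1 and Kcnma1 against the summed CPM of 12 skeletal muscle markers, 1 point an animal. Cold 15 is the upper right point in each panel and cold 11 the next along the horizontal axis.

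The 6 called genes kept their calls without that library. Without cold 15 the log2 fold changes were 0.72 for Kcnk3, 1.26 for Kcnj11, 0.44 for Kcnn1 and -0.87 for Kcna6, each past the threshold. Without ctrl 2 and cold 15 they were 0.69, 1.25, 0.51 and -0.91, again past it. The mean of Kcnh6 in cold without cold 15 was 8.96 ± 3.02 CPM (SD, n = 5).

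Other cell types were followed in the same libraries. Of 5 white adipocyte markers 1 was higher, Npr3 (92.0 and 464 CPM), and their sum was 98.0 to 257 CPM in ctrl and 426 to 623 CPM in cold. Npr3 made up most of that sum. Lep (29.2 and 13.9 CPM) and Nnat (10.3 and 7.98 CPM) had lower means in cold, and Retn a higher one (24.6 and 29.3 CPM). None of these passed the test. Of 10 fibroblast and progenitor markers 3 were lower (Col1a1, Col3a1 and Lum), of 10 endothelial markers 2 were higher (Vwf and Pecam1) and 2 lower (Tek and Tie1), and of 10 macrophage markers 1 was higher (Cd68). Their sums were 298 to 450 and 249 to 352 CPM for fibroblasts, 937 to 1263 and 963 to 1183 CPM for endothelium and 48.7 to 83.0 and 61.1 to 88.7 CPM for macrophages, in ctrl and cold. Of 10 lymphocyte markers 6 were under 1 CPM in every library. The part of these cells in the 6 changes was not tested.

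The remaining genes passed the level rule through 1 group and close to the threshold. Kcnab2, a beta subunit, ranged from 0 to 0.855 CPM in ctrl, with 4 animals at 0, and from 0.0539 to 1.39 CPM in cold. Kcnc2, a relative of Kcnc1, ranged from 0.247 to 0.603 CPM in ctrl and from 0.323 to 0.817 CPM in cold. Kcnh1, of the ether-a-go-go family, passed through ctrl, at 0.308 to 1.19 CPM against 0.226 to 0.699 CPM in cold. Just inside the threshold, by the larger group mean in CPM of library totals, were Kcnh1 (0.563), Kcnc2 (0.584) and Kcnn4 (0.682), and just outside were Kcnd1 (0.469), Kcnab1 (0.375) and Kcnk5 (0.373). Of the 60 genes outside the rule, 12 had no read, 20 had 1 to 9 reads over all libraries and 28 had 10 or more.

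Transcript usage, the share of each transcript in its gene, could be tested in 7 of the 26 potassium channel genes, and 0 passed with edgeR's diffSpliceDGE, against 1.23% of the 7233 genes tested. None of the 7 had an unadjusted p under 0.05 with that test or with Simes' method, which also called 0; limma's diffSplice called 0, with 1 gene, Kcnh2, under that unadjusted p.

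Genes with other names were read from 3 lists: partners of potassium channels, potassium cotransporters with their regulators, and subunits of voltage-gated calcium channels. The partner list was drawn broadly and takes in the Hcn cation channels. Of 33 partners, 25 were tested, and 12 rose and 4 fell, which is 64% called against 31.6% of all genes tested, with a median log2 fold change of 0.31 against -0.01 over all genes. The smallest p was that of Hcn2, which encodes a cation channel opened by hyperpolarisation and cAMP: it ranged from 1.48 to 2.36 CPM in ctrl and from 6.82 to 14.6 CPM in cold, a log2 change of 2.31 ± 0.19 (adjusted p = 1.82e-07, edgeR). Dlg1, a membrane scaffold, rose by 0.86 ± 0.08 and Cnih4, a cargo receptor of the early secretory path, by 0.71 ± 0.08 on the log2 scale. Nedd4l, a ubiquitin ligase that removes channels from the membrane, fell by 0.67 ± 0.08 on that scale, from 71.9 to 45.3 CPM. The other 3 that fell were Lrrc55, an auxiliary subunit of Kcnma1 channels (1.12 and 0.304 CPM), the anchoring protein Akap5 (3.24 and 1.52 CPM) and Abcb8, of the mitochondrial ATP-sensitive potassium channel (137 and 119 CPM), named after their values were seen. Abcb8 lost its call under 10 alternatives, such as library totals (-0.11, adjusted p = 0.276, edgeR), and so did Akap5 under 2, without ctrl 2 and cold 15 (-0.80, adjusted p = 0.0780) and without cold 4 and cold 7 (-1.02, adjusted p = 0.0598). Lrrc52, of the same family as Lrrc55, rose (2.59 and 7.65 CPM). Ccdc51, of the same mitochondrial channel as Abcb8, also rose (14.9 and 18.8 CPM). Both were named after their values were seen, and they lost their calls under 3 and 9 alternatives. With effective transcript lengths as an offset 9 partners rose and 4 fell, and without ctrl 2 and cold 15 the counts were 9 and 2.

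The second list held 18 genes: Slc12 cotransporters, kinases that set them, and the ubiquitin ligase genes Klhl3 and Cul3. Not every Slc12 member listed moves potassium with chloride. Of the 18, 14 were tested, 3 rose and 2 fell (median log2 fold change 0.21 against -0.01 over all genes). The share called, 35.7%, was near the 31.6% of all genes tested. Slc12a2, the sodium-potassium-chloride cotransporter, went from 63.8 ± 17.8 to 209 ± 21.7 CPM (1.71 ± 0.17, adjusted p = 4.65e-06, edgeR), with ctrl animals at 36.6 to 84.8 CPM and cold animals at 166 to 225 CPM. Slc12a7, a potassium-chloride cotransporter, rose by 0.42 ± 0.09 on the log2 scale; with effective transcript lengths as an offset its log2 fold change was 0.31 and did not pass (adjusted p = 0.214). Wnk1, a kinase upstream of Stk39, was at 122 ± 12.9 and 161 ± 23.1 CPM (0.40 ± 0.10, adjusted p = 7.05e-03, edgeR), named after its values were seen. Slc12a9, a relative of less known function, fell by 1.16 ± 0.11, and Stk39, a kinase that activates Slc12a2, fell by 0.69 ± 0.16.

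Of 23 subunits of voltage-gated calcium channels 13 were tested and 0 passed with edgeR, against 31.6% of all genes tested, with 2 at an unadjusted p under 0.05, Cacna1a and Cacna2d2. DESeq2 and limma-voom each called 1 of the 13 higher, Cacna1a, which encodes the pore of a calcium channel best known from nerve terminals and was at medians of 4.63 and 7.58 CPM (0.79 ± 0.29, adjusted p = 0.0538, edgeR). Cacna1a was also called higher with library totals (0.90, adjusted p = 0.0321, edgeR) and with a minimum count of 30 (0.78, adjusted p = 0.0494). The same held without cold 4, ctrl 9 or ctrl 10 (adjusted p = 0.0406, 0.0236 and 0.0184, edgeR). Cacna2d2, an auxiliary subunit, was called higher without cold 4 (1.14, adjusted p = 0.0307, edgeR). It was also called without cold 4 and cold 7 (1.28, adjusted p = 0.0243). With the muscle markers as a covariate 1 subunit was called lower, Cacnb1, known from skeletal muscle (-0.55, adjusted p = 0.0237, edgeR).

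**Figure D5:**
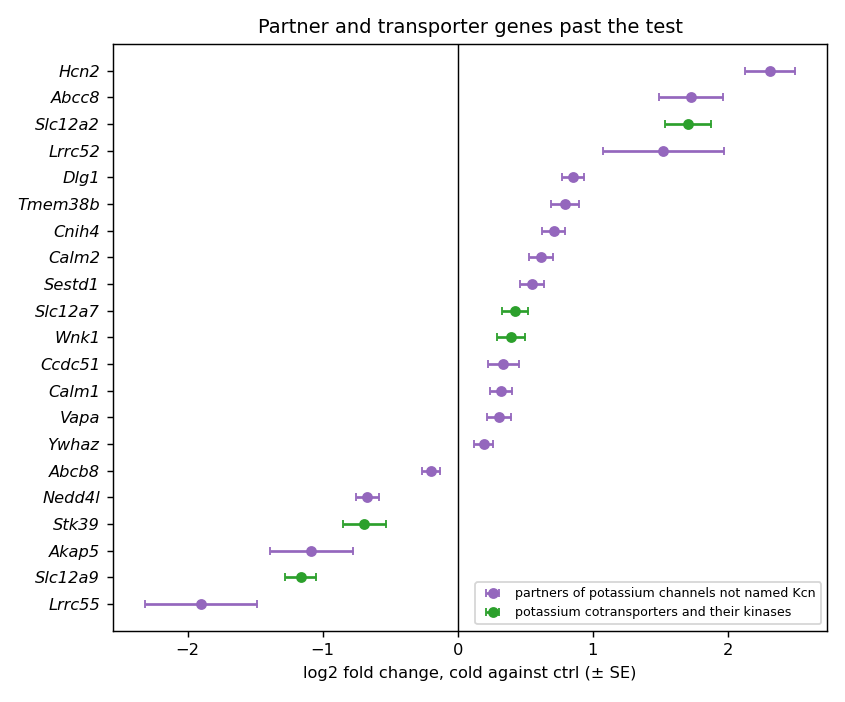
Log2 fold change of cold against ctrl with its SE (edgeR) for the partner genes and the cotransporter and kinase genes that passed the test. Hcn2, Abcc8 and Slc12a2 are the 3 highest and Lrrc55 the lowest.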

How the data were processed

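PolyA RNA of 12 mice was read as 50 nt pairs from strand-specific libraries, per the labels' protocols. Reads went through bcl2fastq, cutadapt and Salmon on GRCm38, per the submitters' processing notes. The annotation release and library type are not given in the sources used here. Per the file headers, a deposited file lists estimated counts and TPM of 140658 transcripts for 1 animal, and each animal has its own mouse number.

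Estimated counts were summed over the 140137 transcripts matched to GENCODE M21 (GRCm38) and rounded; 521 unmatched transcripts held 0.0866% to 0.152% of reads. Genes past filterByExpr (minimum count 10) were scaled by TMM and tested with edgeR's robust quasi-likelihood fit, threshold 0.05; printed CPM are TMM-scaled. RPKM use annotated transcript lengths. TPM served for shares of transcripts within a gene. Promoters are RefSeq's. Exon overlaps on the opposite strand were found for 12 of the 34 genes.

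The genes, lists and alternatives were chosen with earlier results of these data known. Named were Kcnh6, Kcnk3, called genes, the 8 highest RPKM, genes passing through 1 group, 3 on each side of the level threshold, and up to 4 called per list by smallest p; others were described to account for all members. A permutation test planned for the family shares was left out, since they sum over chosen genes. Alternatives were other scalings, filters and tests, a muscle covariate, an effective length offset and libraries left out. A few genes are not reported here. On simulated counts (13710 genes) the gene test found 53.7% of 1.5-fold, 79.1% of 2-fold and 90.9% of 4-fold changes and made 7 false calls; the usage test (6666 genes) found 60% of 4-fold changes with 43 false calls. Work used R 4.3.3, edgeR 4.0.16, limma 3.58.1, DESeq2 1.42.0 and Python 3.11.15.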

Additional observations from a re-analysis of the deposited data

Results flagged for a closer look

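In 10 of 68 groups examined (34 genes in 2 groups of 6), 1 animal was flagged. Its gap to the rest passed the 95% critical value of Dixon's gap test. The nominal rate of 1 in 20 is no yardstick here, since the level rule used these same values. Some flagged genes passed that rule through 1 group alone, Kcnh6, Kcnma1 and Kcnj12 through cold and Kcnh1 through ctrl. The groups are not independent either, and some lie near the floor, so the 10 flagged groups are a description. Cold 15 was the high animal in 4 of them: Kcnj2 (9.22 CPM, others 0.583 to 2.80), Kcnma1 (5.25, others 0.194 to 1.29), Kcnj12 (2.27, others 0.361 to 0.754) and Kcng4 (4.72, others 2.56 to 3.32). In cold 16 Kcnab3 was at 2.92 CPM, above 1.81 to 2.21 in the other cold animals. Among ctrl animals, Kcnh6 was at 0.283 CPM in ctrl 5 against 0 to 0.0503. Kcnma1 was at 0 in ctrl 2 against 0.396 to 0.588 CPM. In ctrl 10 Kcnq5 was at 1.71 CPM against 0.728 to 1.084. Ctrl 6 was the high animal for Kcne4 (1.31 CPM, others 0.453 to 0.653) and for Kcnh1 (1.19 CPM, others 0.308 to 0.603).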

How the results depend on the processing

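Of 565 results for single potassium channel genes under 22 alternatives, 557 kept their side of the threshold, 2 lost the call, 6 gained it and 0 called ones reversed. Without cold 4 and cold 7 1 potassium channel gene was lower, and 1 with the effective length offset, where Kcna6 lost its call; the cause was not tested. With library totals 1409 genes in all were lower. Leaving out 1 animal at a time gave 2023 to 2605 genes higher and 1836 to 2481 lower in all, 4 to 5 potassium channel genes higher and 2 to 3 lower, and 0 with changed usage. The level rule then kept 33 to 34 genes, Kcnh1 being lost without ctrl 6; at 1 CPM it kept 28 and at 0.25 CPM 43. The log2 fold change of Kcnh6, given without a test, was 6.96 and became 8.51 without ctrl 5, the animal with 7 of its 9 ctrl reads. The ctrl reads then left were 1 in ctrl 6 and 1 in ctrl 10. Both values thus rest on a ctrl level at the floor, and their size is uncertain. No paired analysis was possible because the mouse numbers differ between the groups. Depth limits the genes near 0.5 CPM, where a library holds few reads.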
